A study of Arabidopsis thaliana with 9 samples.

Results

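The 10 genes QUA1, QUA2, GAUT1, GAUT7, PGX1, PGX2, PGX3, ADPG1, ADPG2 and PMR6, which build or cut homogalacturonan, the unbranched backbone of pectin, were described across 3 genotypes of Arabidopsis thaliana. They were taken by name from the 25760 genes of the count table. They comprise 4 genes of synthesis (QUA1, QUA2, GAUT1 and GAUT7), 5 polygalacturonases (PGX1, PGX2, PGX3, ADPG1 and ADPG2) and 1 pectate lyase-like gene (PMR6). All 10 passed the filter on low counts, as did 22671 genes in all. RNA came from inflorescence meristems that had been dissected from wild-type plants (col-0), from csld5, a mutant of the cellulose synthase-like gene CSLD5, and from csld5 plants that also carried pATML1::GFP+CSLD5, a transgene driven by the promoter of the epidermal gene ATML1. The last group, called complemented here, therefore shares the csld5 mutation. The sources used here give neither the allele nor the number of transgenic lines. They also do not say whether the 3 libraries of each genotype stem from different plants. A p-value here weighs the difference between genotypes against the spread of libraries within a genotype, and that spread may be technical only.

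Pectin is made in the Golgi. Galacturonosyltransferases of the GAUT family join galacturonic acid units into homogalacturonan, methyltransferases esterify the chain, and the polymer is delivered to the wall in that esterified form. In the wall, once methyl groups have been removed, polygalacturonases cut the chain by hydrolysis and pectate lyases cut it by elimination. In shoot meristems and stems, the state of homogalacturonan is known to bear on how stiff the walls are and how well neighbouring cells adhere.

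The 5 polygalacturonases belong to a large family that shares a short motif of the active site, usually glycine-histidine-glycine. The coding stretch of 57 bases around it is printed for each, to show how alike these genes are at the motif. Whether any reads were shared between them was not tested. Capitals mark the 9 bases of the motif codons, read 5′ to 3′ on the coding strand from RefSeq's TAIR10.1, and all but that of PGX2 are joined across an intron.
PGX1: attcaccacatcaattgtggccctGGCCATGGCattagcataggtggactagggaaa
PGX2: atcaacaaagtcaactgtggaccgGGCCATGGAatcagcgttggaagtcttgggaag
PGX3: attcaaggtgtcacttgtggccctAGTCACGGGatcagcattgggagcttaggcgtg
ADPG1: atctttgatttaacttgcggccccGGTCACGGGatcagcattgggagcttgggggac
ADPG2: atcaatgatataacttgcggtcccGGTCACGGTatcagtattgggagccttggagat

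ADPG1 and ADPG2 were identical at 47 of these 57 bases, PGX1 and PGX2 at 40, and PGX3 was nearest to ADPG1, at 43. Counting from 1 at the first capital and taking PGX1 as the reference, PGX3 alone differed at the first base of the motif (G1A), so that its first motif codon is not a glycine codon, and PGX3, ADPG1 and ADPG2 shared C3T and T6C. Whole coding sequences were also aligned, and identity was taken over the aligned bases, with gaps left out. On that measure ADPG1 and ADPG2 were 76.8% identical, with a longest identical run of 23 bases. The other pairs of polygalacturonases were 59.4% to 62.4% identical, and the longest run of any pair was 25 bases, between PGX3 and ADPG1. Among the synthesis genes, GAUT1 and QUA1 were 65.0% identical over the aligned coding bases, GAUT7 and QUA1 60.7%, and GAUT1 and GAUT7 59.3%.

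Total counts ran from 35543318 to 45679471 reads per library. In TMM-scaled CPM (counts scaled to a common library size), CSLD5 had a mean of 131 ± 4.36 in the wild type and 27.3 ± 0.724 in the mutant (SD, n = 3). It had 935 ± 78.3 CPM in complemented libraries, where reads of the transgene and of the resident gene cannot be told apart. All 6 markers of shoot and floral meristems were detected, and their summed levels in col-0, csld5 and complemented libraries were 405 to 433, 371 to 443 and 389 to 417 CPM. Markers of other cells were detected too: in the same order, the 8 late pollen markers summed to 216 to 345, 391 to 673 and 321 to 384 CPM, and the 7 tapetum markers to 273 to 355, 204 to 348 and 343 to 449.7 CPM. AP1, at a mean of 232 CPM in col-0, made the largest part of the meristem sums. Of the 6 meristem markers, 3 were higher in csld5 than in col-0 (STM, WUS and KNAT1) and 2 lower (CLV1 and AP1) at an edgeR adjusted p below 0.05. Over all tested genes 21.1% were higher and 20.4% lower. In complemented against csld5, 0 were higher and 3 lower, where 19.8% and 21.1% of all tested genes were. In bulk tissue, fewer cells of a type and less RNA per cell cannot be told apart.

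The members spanned a wide range of levels per length. In deposited TPM (transcript abundance scaled by length and library size) the order in col-0 was QUA1 (71.7 ± 6.57), PMR6 (53.7 ± 1.41), GAUT1 (51.7 ± 0.729), QUA2 (47.3 ± 2.97), GAUT7 (35.0 ± 0.404), PGX3 (12.1 ± 0.535), ADPG1 (2.41 ± 0.962), PGX1 (0.668 ± 0.149), PGX2 (0.337 ± 0.0984) and ADPG2 (0.247 ± 0.102). The ranges over libraries of neighbours in that order overlapped for PMR6 and GAUT1 and for PGX2 and ADPG2, and for no other neighbours. QUA1 was the highest, and GAUT7, PGX3 and ADPG1 held the fifth, sixth and seventh places, in each genotype. PMR6, GAUT1 and QUA2 lay close together below QUA1, and in complemented libraries GAUT1 (52.0 ± 2.31 TPM) stood above PMR6 (48.3 ± 2.01 TPM). The 3 lowest genes changed places: ADPG2 was last in col-0 and eighth in csld5, at 0.702 ± 0.176 TPM, where its range overlapped that of PGX2 (0.507 ± 0.139 TPM).

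**Figure D1:**
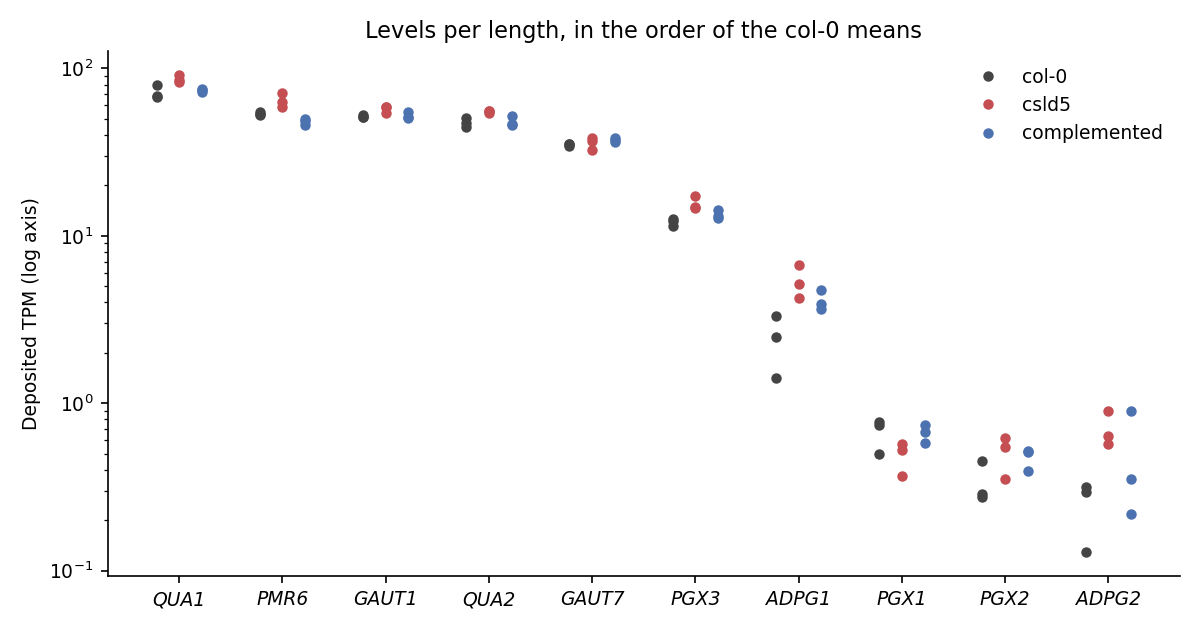
Deposited TPM of the 10 genes on a log axis, 1 point per library (3 for each genotype), with the genes in the order of their col-0 means. The 4 synthesis genes and PMR6 lie above 30 TPM in every library, PGX3 lies between 11.5 and 17.3 TPM, and PGX1, PGX2 and ADPG2 lie below 1 TPM in every library.

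Summed over members, the 4 synthesis genes came to 206 ± 10.1 TPM in col-0, 235 ± 8.92 TPM in csld5 and 211 ± 2.76 TPM in complemented libraries. The 5 polygalacturonases came to 15.7 ± 0.427 TPM in col-0, 22.7 ± 1.5 TPM in csld5 and 19.1 ± 1.73 TPM in complemented libraries. The csld5 range of the polygalacturonase sum, 21.1 to 23.9 TPM, lay above that of col-0 and overlapped at its edge with that of the complemented libraries, whose highest value was also 21.1 TPM. PGX3 made up most of this sum in every genotype and ADPG1 most of the rest.

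The first comparison sets the mutant against the wild type. Of the 10 members 5 were higher in csld5 and 0 lower: the polygalacturonases PGX3, ADPG1 and ADPG2, by 1.57, 2.24 and 2.90 times, and the synthesis genes QUA1 and QUA2, by 1.20 and 1.15 times. In this comparison 41.5% of the 22671 tested genes were called, 21.1% higher and 20.4% lower, at an adjusted p below 0.05 (edgeR's quasi-likelihood test, Benjamini-Hochberg adjustment over all tested genes). The members' median log2 fold change was 0.23, against a median of -0.02 over all tested genes. The csld5 libraries all lay above the col-0 libraries for 7 members, the 5 called and GAUT1 and PMR6, where 25.2% of tested genes had such a gap in that direction.

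**Figure D2:**
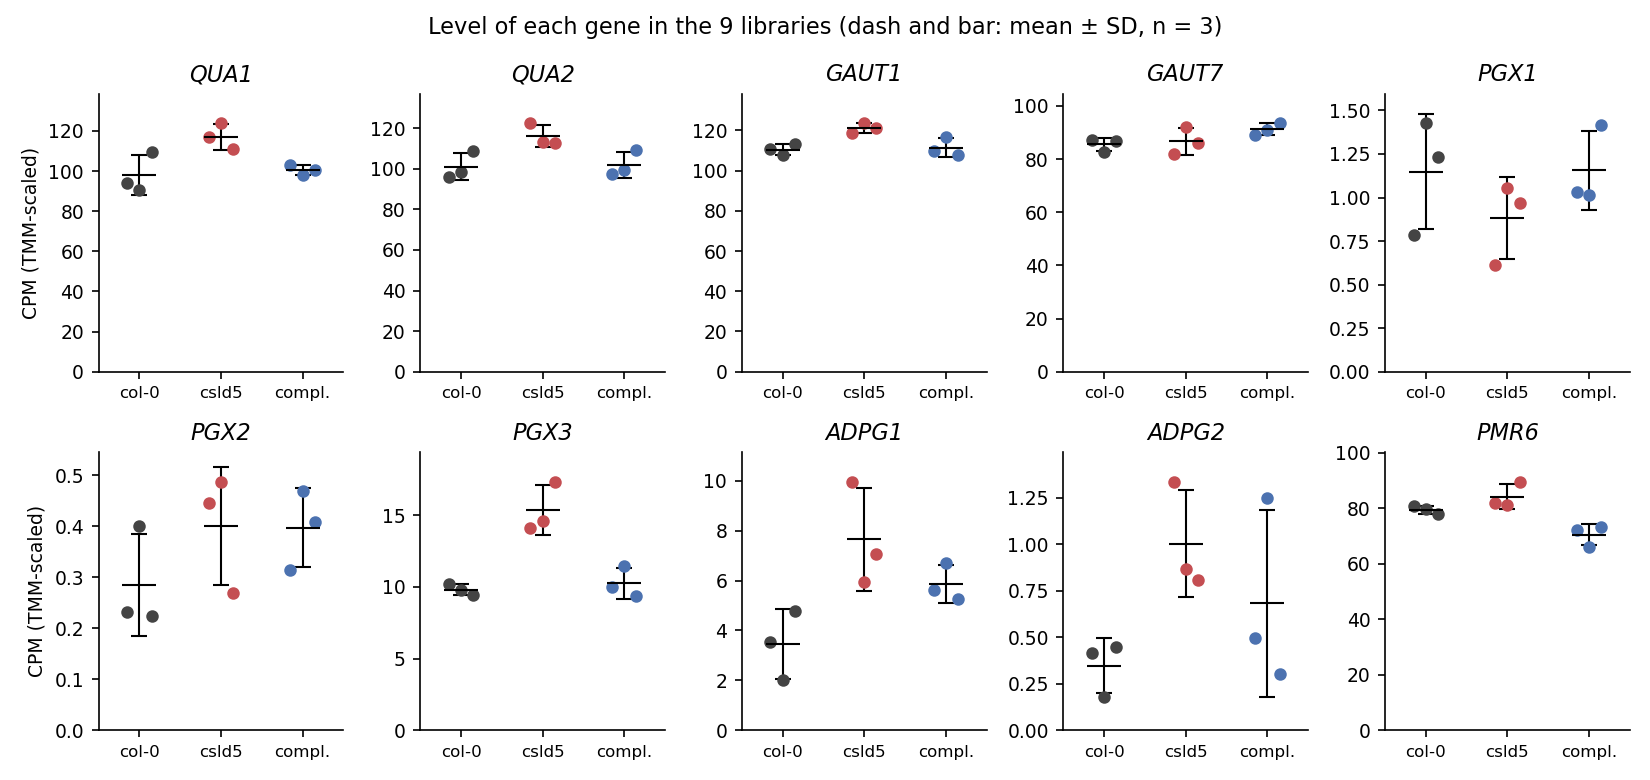
TMM-scaled CPM of each gene in the 9 libraries, with 1 point per library, the mean as a dash and the SD as a bar (n = 3), on linear axes that start at 0. The csld5 points of PGX3 (14.1 to 17.3 CPM) lie above all points of the other genotypes. Those of GAUT7 (81.9 to 92.0 CPM) overlap in range with both other genotypes.

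QUA1 (AT3G25140, chr3:9154508-9157012 in TAIR10.1, plus strand), also named GAUT8, is needed for normal pectin and for cells to adhere. It stood at 93.9, 90.8 and 109.5 CPM in the col-0 libraries, at 116.9, 123.8 and 110.8 CPM in csld5 and at 102.9, 98.3 and 100.4 CPM in complemented libraries. The csld5 libraries were the highest, but the third col-0 library came close to the lowest of them. The rise in csld5 was 0.26 ± 0.07 on the log2 scale (SE, n = 3 against 3; edgeR adjusted p = 0.011). The call was lost when library totals replaced the TMM factors (0.18), and without col-0 replicate 1 (0.23), col-0 replicate 2 (0.21) or csld5 replicate 2 (0.22).

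QUA2 (AT1G78240, chr1:29432829-29436674, minus strand; TSD2 in RefSeq) encodes a putative pectin methyltransferase, and its mutants, like those of QUA1, have cells that come apart. Its levels were 96.0, 98.5 and 108.5 CPM in col-0, 122.4, 113.1 and 112.6 CPM in csld5 and 97.3, 99.2 and 109.2 CPM in complemented libraries. All 3 csld5 libraries were above the other 6. The rise was 0.20 ± 0.07 (log2, SE; edgeR adjusted p = 0.027), and it was not called after a correction for GC content and exon length (0.08), with library totals (0.12), or without col-0 replicate 1 (0.16), col-0 replicate 2 (0.18) or csld5 replicate 1 (0.17).

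GAUT1 (AT3G61130, chr3:22621912-22625808, plus strand) is the catalytic galacturonosyltransferase of homogalacturonan, and GAUT7 (AT2G38650, chr2:16161455-16165876, minus strand) anchors it in the Golgi. GAUT1 stood at 110.5, 107.6 and 113.3 CPM in col-0, 118.8, 123.5 and 121.0 CPM in csld5 and 109.8, 116.6 and 107.8 CPM in complemented libraries. Its csld5 libraries lay above the rest, and its difference from col-0, 0.13 ± 0.05 (log2, SE), had a 95% interval of 0.03 to 0.24 and an edgeR adjusted p = 0.06. DESeq2 called it (0.14, adjusted p = 0.029), as did limma on unfiltered TPM and edgeR without csld5 replicate 1 (0.16, adjusted p = 0.044). GAUT7 stood at 87.3, 82.6 and 86.7 CPM in col-0, 81.9, 92.0 and 86.1 CPM in csld5 and 88.9, 91.1 and 93.4 CPM in complemented libraries. Its col-0 and csld5 libraries overlapped, and the difference was 0.02 ± 0.06 (edgeR adjusted p = 0.82), a 95% interval of -0.09 to 0.13.

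PGX3 (AT1G48100, chr1:17766738-17769951, plus strand), a polygalacturonase known from stomatal pores in cotyledons, gave the smallest p of the members. It stood at 10.2, 9.78 and 9.42 CPM in col-0, at 14.1, 14.6 and 17.3 CPM in csld5 and at 9.98, 11.5 and 9.36 CPM in complemented libraries, from 336 to 643 reads per library. The 3 csld5 libraries were the highest of the 9, with a gap to the next. The rise was 0.65 ± 0.11 (log2, SE; edgeR adjusted p = 0.00037), and it was called in all 12 other fits and without each of the 9 libraries in turn (0.55 to 0.72). After the GC and length correction it was 0.36, with an adjusted p = 0.01.

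The size of the PGX3 difference also depended on which deposited table was read. The csld5 mean was 1.57 times the col-0 mean in CPM but 1.3 times in TPM, where the levels were 12.1 ± 0.535 and 15.6 ± 1.46. On the opposite strand, the annotated long non-coding RNA AT1G07477 shares 717 of the 1937 exon bases of PGX3, or 37.0%, and is not listed in the count table. Whether the counting used strand is not known from the sources used here, and reads of that transcript may be counted at PGX3. The part of this overlap in the result was not tested. The neighbour AT1G48110, which shares 14 bases, stood at 46.6 ± 3.23 CPM in col-0 and 47.3 ± 3.01 CPM in csld5 (edgeR adjusted p = 0.82).

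ADPG1 (AT3G57510, chr3:21283338-21285941, minus strand) and ADPG2 (AT2G41850, chr2:17461655-17464242, minus strand; PGAZAT in RefSeq) are polygalacturonases that open siliques and anthers, and ADPG2 also acts when floral organs are shed. ADPG1 stood at 3.54, 2.01 and 4.80 CPM in col-0, at 9.97, 5.96 and 7.07 CPM in csld5 and at 5.62, 6.72 and 5.28 CPM in complemented libraries. The col-0 libraries were the lowest 3 of the 9, and the csld5 and complemented libraries overlapped. The rise in csld5 was 1.16 ± 0.26 (log2, SE; edgeR adjusted p = 0.0031), called in all 12 other fits (0.93 to 1.27) and without each library in turn (0.88 to 1.47).

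ADPG2 rested on few reads, with 18, 8 and 16 in the col-0 libraries, 48, 32 and 30 in csld5 and 22, 48 and 14 in complemented libraries. Scaled to library size these were 0.417, 0.178 and 0.449 CPM in col-0, 1.34, 0.867 and 0.809 CPM in csld5, and 0.495, 1.25 and 0.300 CPM in complemented libraries. The csld5 libraries were above every col-0 library, whereas the complemented libraries spread over both ranges. The rise was 1.54 ± 0.53 (log2, SE; edgeR adjusted p = 0.031), with a 95% interval of 0.51 to 2.57. The call was lost without col-0 replicate 1 (1.70), col-0 replicate 2 (1.21) or csld5 replicate 1 (1.29), and with limma on unfiltered TPM (0.45).

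Both ADPG genes act in anthers, and markers of late pollen moved in the same comparison. Of the 8 late pollen markers, 6 were higher in csld5 and 0 lower, with a median log2 fold change of 1.17, while 0 of the 7 tapetum markers were higher and 2 were lower. Over all tested genes 21.1% were higher and 20.4% lower. The sum of the late pollen markers was 391, 673 and 583 CPM in the csld5 libraries 1, 2 and 3. In the same libraries ADPG1 stood at 9.97, 5.96 and 7.07 CPM and ADPG2 at 1.34, 0.867 and 0.809 CPM. Of the 6 markers of dehiscence and abscission zones, 5 were in the count table and 4 tested. Of these, 1 was higher and 1 lower in csld5, and the sums of the 5 in col-0, csld5 and complemented libraries were 43.7 to 44.0, 41.7 to 47.8 and 48.1 to 49.6 CPM, with ALC at or under 3 reads in csld5. The part of these cell types in the result was not tested.

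**Figure D3:**
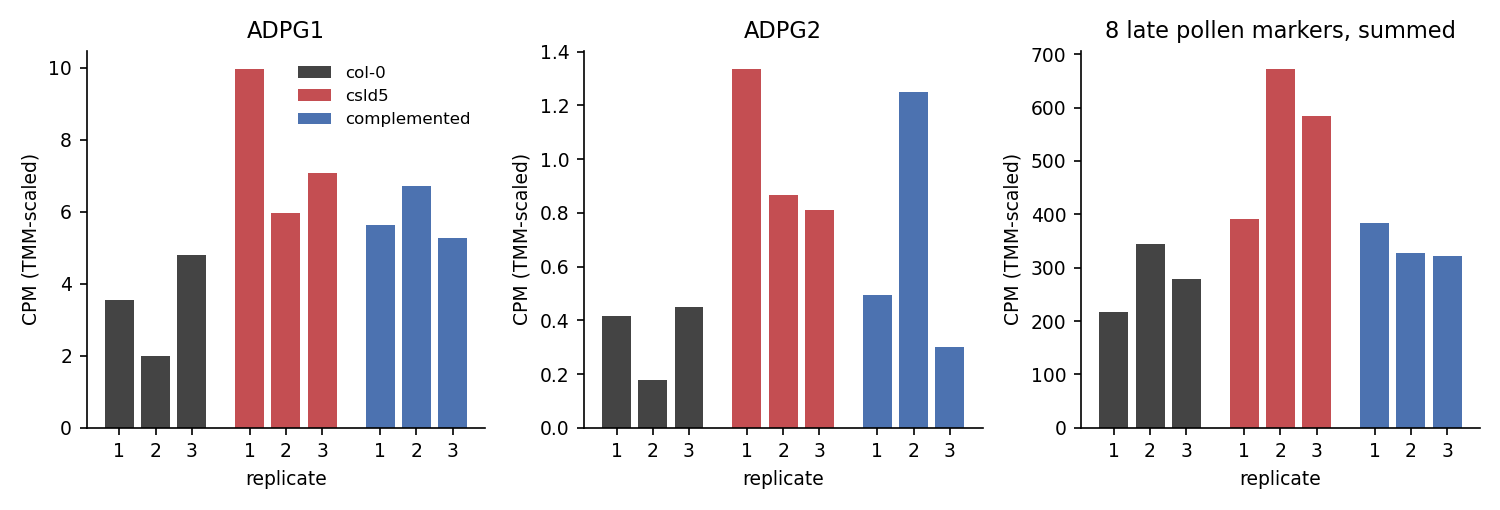
TMM-scaled CPM of ADPG1, of ADPG2 and of 8 late pollen markers summed, with 1 bar per library and bars from 0. Among the csld5 libraries ADPG1 is highest (9.97 CPM) in replicate 1, where the pollen sum is lowest (391 CPM). In replicate 2 ADPG1 is lowest (5.96 CPM) and the pollen sum highest (673 CPM).

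PGX1 (AT3G26610, chr3:9776958-9780553, plus strand) and PGX2 (AT1G78400, chr1:29498194-29499682, minus strand), named for roles in cell expansion, rested on few reads. PGX1 had 34, 64 and 44 reads in the col-0 libraries, 22, 39 and 36 in csld5 and 46, 39 and 66 in complemented libraries, and the 3 genotypes overlapped. Its difference in csld5 was -0.38 ± 0.32 (log2, SE; edgeR adjusted p = 0.37), a 95% interval of -1.01 to 0.25. PGX2 had 10, 18 and 8 reads in col-0, 16, 18 and 10 in csld5 and 14, 18 and 19 in complemented libraries, and its difference in csld5 was 0.47 ± 0.44 (edgeR adjusted p = 0.41), a 95% interval of -0.39 to 1.33. That interval holds both no difference and a 2-fold rise of PGX2.

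PMR6 (AT3G54920, chr3:20344785-20348659, plus strand), the pectate lyase-like gene whose loss gives resistance to powdery mildew, gave opposite answers under different processing. It stood at 80.7, 79.8 and 77.7 CPM in col-0, at 81.9, 81.2 and 89.5 CPM in csld5 and at 72.1, 66.0 and 73.3 CPM in complemented libraries. Its csld5 libraries lay just above those of col-0, by 0.08 ± 0.06 on the log2 scale (SE; edgeR adjusted p = 0.28). In deposited TPM the csld5 mean was 1.20 times that of col-0 (64.3 ± 6.35 and 53.7 ± 1.41), and limma on log2 TPM called it higher (0.25, adjusted p = 0.013). After the GC and length correction edgeR called it lower (-0.32, adjusted p = 0.00043).

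PMR6 shares 728 of its 2214 exon bases, or 32.9%, with AT3G54910 on the opposite strand, a gene that is in the count table, and 30 bases with AT3G08445. AT3G54910 stood at 28.1 ± 2.42 CPM in col-0 and 23.9 ± 2.47 CPM in csld5, a difference of -0.24 ± 0.09 (edgeR adjusted p = 0.052), but at 36.3 ± 1.92 and 46.5 ± 4.65 TPM. The counts and the TPM of this overlapping gene thus went in opposite directions between the same libraries. The part of the overlap in the PMR6 values was not tested. QUA1 shares 8.34% of its exon bases, 191 of 2290, with AT3G25150 on the opposite strand, which stood at 101.8 ± 4.99 CPM in col-0 and 105.7 ± 5.43 CPM in csld5 (0.05 ± 0.06, edgeR adjusted p = 0.47), and apart from PGX3, PMR6 and QUA1 no member shares exon bases with an annotated gene.

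The GC and length correction moved the members unequally. Their exon GC content ran from 38.7% in ADPG1 to 45.5% in PMR6, against a median of 41.1% over the tested genes. The genes of highest GC content, PMR6, PGX2 (44.9%) and PGX3 (44.2%), moved from 0.08 to -0.32, from 0.47 to 0.27 and from 0.65 to 0.36 in csld5 against col-0. ADPG1 (38.7%) and ADPG2 (39.4%) moved from 1.16 to 1.26 and from 1.54 to 1.58. With the correction 4 members were higher (QUA1, PGX3, ADPG1 and ADPG2) and 1 lower (PMR6), and over all tested genes the share of calls that were higher went from 50.9% to 38.9%. The calls over all genes went from 9417 to 8112. GC content and length accounted for 2.58% to 4.98% of the variance of a col-0 library's deviations from the mean profile over genes. The corresponding shares were 9.24% to 33.9% for csld5 and 12.8% to 21.6% for complemented libraries, with the highest in csld5 replicate 3.

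**Figure D4:**
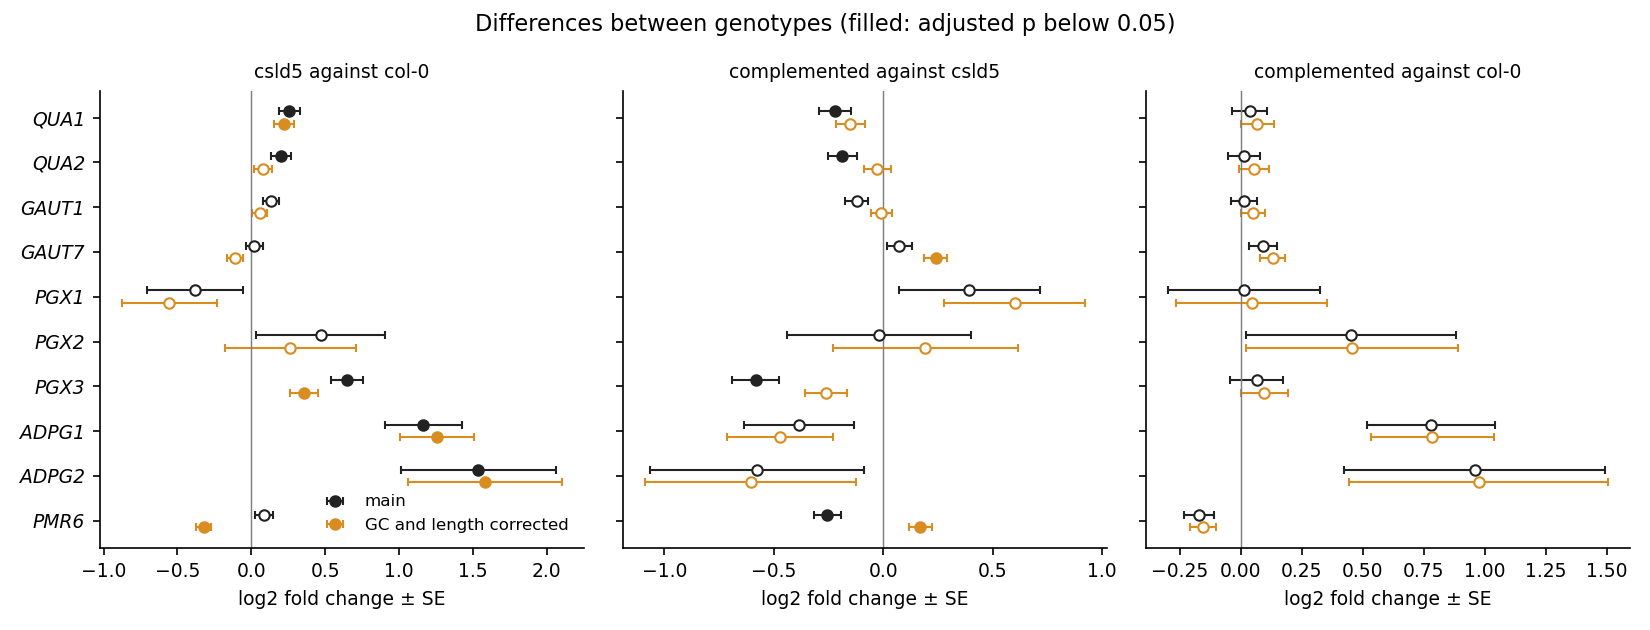
Log2 fold change ± SE of each gene in the 3 comparisons (n = 3 against 3), without (black) and with (orange) the GC and length correction; filled points have an edgeR adjusted p below 0.05. PMR6 crosses 0 with the correction in the first and second panels, while PGX3, ADPG1 and ADPG2 stay above 0 in the first.

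The second comparison asks how the members differ between csld5 plants with and without the transgene. Of the 10, 4 were lower in complemented than in csld5 libraries and 0 were higher: QUA1, QUA2, PGX3 and PMR6, at 0.858, 0.878, 0.668 and 0.837 times the csld5 level. In this comparison 40.9% of the tested genes were called, 19.8% higher and 21.1% lower. The members' median log2 fold change was -0.20, against 0.02 over all tested genes. It uses the same csld5 libraries as the first comparison, so the signs in these comparisons are not independent.

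PGX3 fell by 0.58 ± 0.11 (log2, SE; edgeR adjusted p = 0.00083), from 15.4 ± 1.75 to 10.3 ± 1.08 CPM. In TPM the fall was smaller, from 15.6 ± 1.46 to 13.4 ± 0.823, and limma on log2 TPM did not call it (-0.21, adjusted p = 0.055), nor did edgeR after the GC and length correction (-0.26, adjusted p = 0.053). PMR6 fell by 0.26 ± 0.06 (edgeR adjusted p = 0.0043), from 84.2 ± 4.61 to 70.5 ± 3.89 CPM, while AT3G54910 was 0.26 ± 0.09 higher (edgeR adjusted p = 0.032). With the GC and length correction PMR6 was called in the other direction (0.17, adjusted p = 0.029). QUA1 fell by 0.22 ± 0.07 (edgeR adjusted p = 0.024) and QUA2 by 0.19 ± 0.07 (edgeR adjusted p = 0.037). With the correction these stood at -0.15 and -0.03 and with library totals at -0.13 and -0.09, and neither was called. The QUA1 call was also lost without csld5 replicate 2 (-0.18) or complemented replicate 2 (-0.21) or 3 (-0.22). That of QUA2 was also lost in the fit of 2 genotypes (-0.18) and without csld5 replicate 1 (-0.15) or 2 (-0.21) or complemented replicate 1 (-0.16) or 2 (-0.17).

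The complemented libraries lay wholly below the csld5 libraries for 5 members, the 4 called and GAUT1 (-0.12 ± 0.05, edgeR adjusted p = 0.084), where 25.7% of tested genes had such a gap in that direction. GAUT7 was 0.07 ± 0.06 higher (edgeR adjusted p = 0.33), and it was called with the GC and length correction (0.24, adjusted p = 0.0042) and with library totals (0.17, adjusted p = 0.032). ADPG1 differed by -0.39 ± 0.25 (edgeR adjusted p = 0.24) and ADPG2 by -0.58 ± 0.49 (edgeR adjusted p = 0.36), with 95% intervals of -0.88 to 0.11 and -1.54 to 0.38. PGX1 (0.39 ± 0.32) and PGX2 (-0.02 ± 0.42) overlapped between the groups. Of the 8 late pollen markers 5 were lower and 0 higher in this comparison, and of the 7 tapetum markers 4 were higher and 0 lower. Over all tested genes 19.8% were higher and 21.1% lower. Of the 7 xylem and phloem markers 4 were lower and 0 higher (median -0.40), and of the 4 green tissue markers 3 were lower and 0 higher (median -0.32). Green tissue markers summed to 14283 to 15373 CPM in the wild type, 15969 to 16787 in csld5, where 2 of 4 were higher than in col-0, and 13334 to 14070.0 in complemented libraries. The part of these cell types in the members' values was not tested.

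The third comparison sets complemented against col-0 libraries. None of the 10 members was called by edgeR, where 1.53% of tested genes were, and none by DESeq2. ADPG1 and PMR6 had the smallest p of the 10 in edgeR. ADPG1 stood at 5.87 ± 0.751 CPM in complemented and 3.45 ± 1.40 CPM in col-0 libraries, a difference of 0.78 ± 0.26 (log2, SE; edgeR adjusted p = 0.22), with all complemented libraries above all col-0 libraries. For PMR6 every complemented library lay below every col-0 library, with a difference of -0.17 ± 0.06 (edgeR adjusted p = 0.24).

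QUA1 (0.04 ± 0.07), QUA2 (0.01 ± 0.07), GAUT1 (0.01 ± 0.05) and PGX3 (0.06 ± 0.11) lay near 0 in that comparison, with 95% intervals of -0.10 to 0.18, -0.12 to 0.14, -0.09 to 0.12 and -0.15 to 0.28. The complemented libraries lay above col-0 for GAUT7 and ADPG1, where 9.37% of tested genes had such a gap, and below for PMR6, where 10.2% had. The intervals of PGX2 (-0.39 to 1.3) and ADPG2 (-0.09 to 2.01) hold both 0 and a 2-fold difference. The median over the members was 0.05 and over all tested genes -0.00.

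By the rule used for likeness, the tested genes whose levels followed PGX3 most closely over the 9 libraries were AT3G06210, PWD and AT5G59130. The root mean square distance between their centred log2 CPM profiles and that of PGX3 was 0.0557, 0.0662 and 0.0672. PWD (AT5G26570), a kinase of starch breakdown, stood at 154 ± 2.87, 224 ± 21.1 and 157 ± 6.15 CPM in col-0, csld5 and complemented libraries. AT3G06210 stood at 11.3 ± 0.343, 17.3 ± 1.74 and 11.6 ± 1.06 CPM in the same order.

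The rest of the pathway was followed with 6 lists of 129 entries, which include the members. Beside the counts of each list, 21.1% of all tested genes were called higher in csld5 against col-0 and 20.4% lower. Of the 15 GAUT genes, 7 were higher in csld5 and 0 lower (median 0.20). GAUT9 rose by 0.39 ± 0.06, from 52.4 ± 3.80 to 68.4 ± 3.19 CPM (edgeR adjusted p = 0.00042), GAUT3 by 0.31 ± 0.07 (adjusted p = 0.0018) and GAUT12, known for its part in secondary walls, by 0.65 ± 0.19 (adjusted p = 0.014). Of the 6 pectin methyltransferases 3 were higher and 0 lower (median 0.14): QUA2, its relative QUA3 (0.31 ± 0.06, edgeR adjusted p = 0.0017) and CGR3 (0.25 ± 0.08, adjusted p = 0.02). Beside these, 3 of the 7 xylem and phloem markers were higher in csld5 and 0 lower, with sums of 107.8 to 108.3 CPM in col-0 and 140.01 to 167 CPM in csld5, and their part in the result was not tested.

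Of the 14 genes of nucleotide sugar supply 13 were in the count table, and 7 were higher in csld5 and 1 lower (median 0.27). The shares over all tested genes were 21.1% higher and 20.4% lower. GAE2, which makes UDP-galacturonic acid, the substrate of the GAUT enzymes, rose by 1.24 ± 0.11, from 10.3 ± 1.16 to 24.2 ± 3.22 CPM (edgeR adjusted p = 4.1e-06). The dehydrogenases UGD3 and UGD2, which make its precursor UDP-glucuronic acid, rose by 0.79 ± 0.07 and 0.49 ± 0.06, and GAE1, of the same enzyme group as GAE2, fell by 0.25 ± 0.07 (edgeR adjusted p = 0.0072). Of 7 genes for rhamnogalacturonan I, the branched pectin, 6 were higher and 0 lower (median 0.31), among them the Golgi nucleotide sugar transporter URGT1 (0.48 ± 0.06), the arabinosyltransferase ARAD1 (0.49 ± 0.07) and the galactan synthase GALS3 (0.41 ± 0.08).

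Among the degrading families, of 61 polygalacturonase-family genes 41 were in the count table, and 17 of these were higher in csld5 and 4 lower (median 0.26). Over all tested genes 21.1% were higher and 20.4% lower. AT5G48140 rose by 2.5 ± 0.19, from 5.03 ± 0.578 to 28.3 ± 8.01 CPM (edgeR adjusted p = 1.5e-06). In libraries 1, 2 and 3 of csld5 it stood at 20.3, 36.3 and 28.3 CPM, and the late pollen markers summed to 391, 673 and 583 CPM. AT3G16850 rose by 0.70 ± 0.06, from 41.7 ± 1.73 to 67.9 ± 4.68 CPM (adjusted p = 3.7e-06). The 4 lower genes, named after their values were seen, were AT4G18180 (-1.47 ± 0.52), AT5G39910 (-1.3 ± 0.34), AT5G14650 (-0.75 ± 0.20) and AT3G62110 (-0.41 ± 0.06). Of 26 pectate lyase-family genes 24 were tested, of which 13 were higher and 0 lower (median 0.56), with AT5G48900 at 1.67 ± 0.11 (21.4 ± 2.51 to 68.0 ± 6.05 CPM, edgeR adjusted p = 4.2e-07). Beside both families, 6 of the 8 late pollen markers were higher in csld5 and 0 lower (median 1.17), and their part in these counts was not tested. PMR6, with 0.08 ± 0.06, lay below the pectate lyase median. Of the 5 polygalacturonases described, PGX2, PGX3, ADPG1 and ADPG2 lay above the median of their family and PGX1 (-0.38 ± 0.32) below it.

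In complemented against csld5 libraries the counts called higher and lower were 0 and 6 for the GAUT family, 0 and 2 for the methyltransferases, 0 and 9 for nucleotide sugar supply, 0 and 7 for rhamnogalacturonan I, 3 and 9 for the polygalacturonase family and 0 and 14 for the pectate lyase family. Over all tested genes 19.8% were higher and 21.1% lower. Against col-0 the counts were 0 and 0 for the GAUT, methyltransferase and rhamnogalacturonan I lists, where 1.53% of all tested genes were called. In the same comparison GAE1 (-0.39 ± 0.07, edgeR adjusted p = 0.0082) was the 1 gene of sugar supply called, AT5G48140 (1.22 ± 0.19, adjusted p = 0.0056) the 1 polygalacturonase, and 4 pectate lyases were higher: AT1G14420 (1.74 ± 0.25), AT2G02720 (2.15 ± 0.34), AT5G48900 (0.77 ± 0.11) and AT5G15110 (1.26 ± 0.23), the last named after its values were seen. After the GC and length correction the counts higher and lower in csld5 against col-0 became 3 and 1 for the GAUT family, 1 and 0 for the methyltransferases, 6 and 2 for sugar supply, 3 and 0 for rhamnogalacturonan I, 11 and 3 for the polygalacturonases and 12 and 2 for the pectate lyases. In complemented against csld5 they became 2 and 2, 0 and 1, 1 and 4, 0 and 2, 3 and 4, and 3 and 7 in the same order. With the correction the calls over all genes went from 9417 to 8112 in csld5 against col-0 and from 9273 to 6867 in complemented against csld5.

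**Figure D5:**
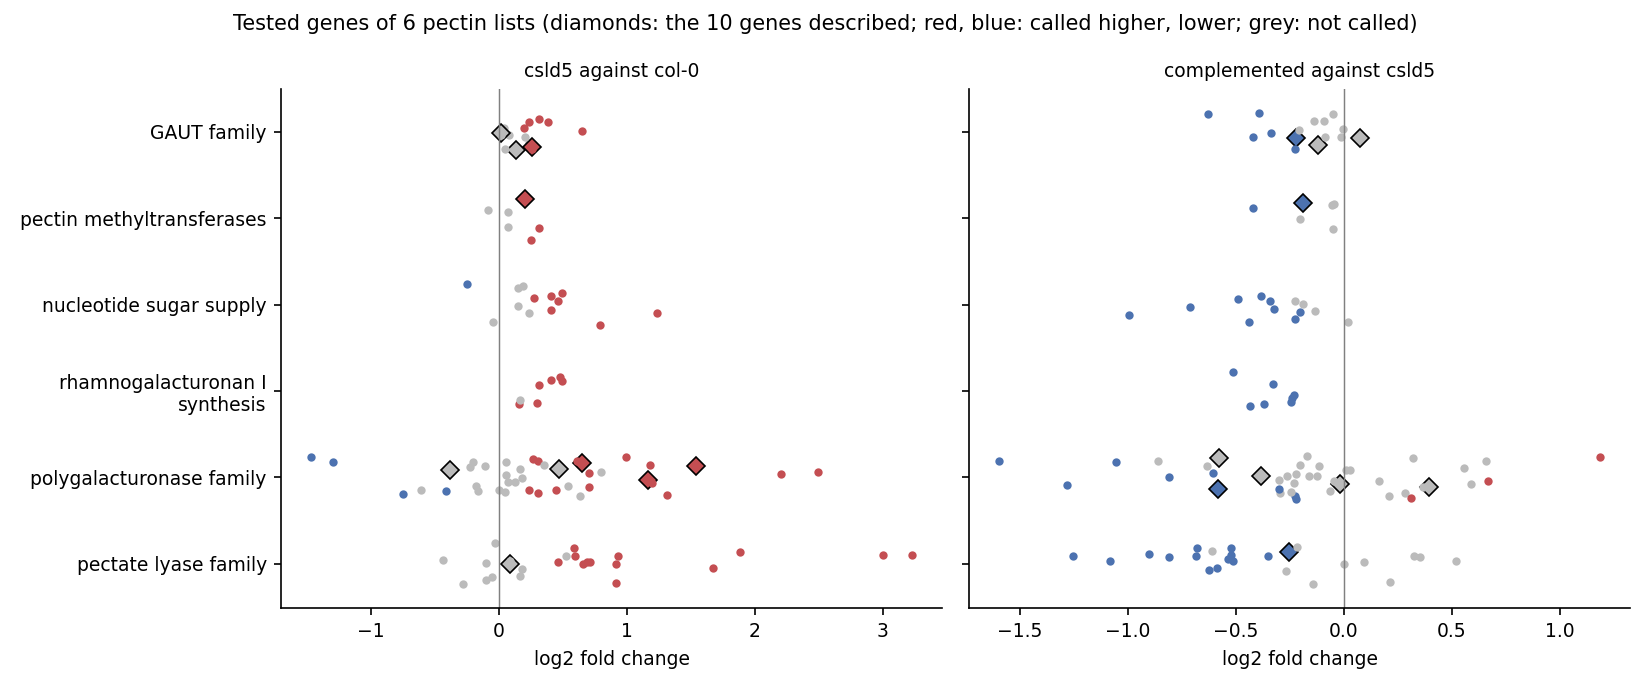
Log2 fold change of every tested gene of the 6 lists in csld5 against col-0 (left) and complemented against csld5 (right), with 1 point per gene, vertical scatter for legibility only, and edgeR calls in red (higher) and blue (lower). The members are diamonds; in the left panel the polygalacturonase family runs from -1.47 to 2.5 and the pectate lyase family from -0.44 to 3.23.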

How the data were processed

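The authors deposited read counts per gene and TPM for the same genes. Per the submitters' processing notes, the tools were Trimmomatic 0.39, HISAT2 2.2.1 and featureCounts 2.0.6 and the build TAIR10. The sources used here do not give the annotation release, whether counting used strand, or how TPM was computed. Groups came from the sample titles.

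The deposited counts were tested with edgeR 4.0.16 (R 4.3.3): default expression filter, TMM factors and the quasi-likelihood F test in 1 fit of all 9 libraries, with Benjamini-Hochberg adjustment over the 22671 genes kept and no fold minimum. The 3 comparisons share libraries. CPM are TMM-scaled. Intervals called 95% are the estimate ± 1.96 SE. That multiplier holds for large samples, so with 3 libraries per genotype they are somewhat too narrow. The deposited TPM, with missing cells set to 0, gave the order between genes. In the counts of col-0 replicate 1 every gene has a read, while 932 to 1540 genes have none in each other library. If genes without a read there were dropped, the family counts and shares called leave out genes silent in col-0; this was not tested.

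Alternatives were DESeq2 size factors, library totals, other filters, DESeq2 1.42.0, limma 3.58.1 on log2 TPM (pseudocounts 1 and 0.1), a replicate block, fits of 2 genotypes, a log2 minimum of 1, leaving out each library, and an offset from a curve on exon GC content and length (mgcv 1.9.3, centred on 0, available for 22580 genes). Simulated counts were used to test the main edgeR fit only, not these alternatives. Positions, exons and coding sequences are from RefSeq's TAIR10.1.

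Named genes were the members, CSLD5, ATML1, up to 3 called genes with the smallest p per list and comparison, and the 3 genes most like the member with the smallest p. Members and lists were chosen with earlier results of these data known.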

Additional observations from a re-analysis of the deposited data

How the results depend on the processing

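Members called in csld5 against col-0 numbered 5 (9417 of all genes), but 3 with library totals (9918 of all genes) and 2 with a log2 fold change of at least 1 (1536 of all genes). They numbered 2 to 5 when a library was left out, with 2 without col-0 replicate 1 (7403 of all genes) or 2 (7667 of all genes). In complemented against csld5 they numbered 4 (9273 of all genes), but 0 at a log2 of at least 1 (1233 of all genes). They numbered 2, both of them higher, with the GC and length correction, alone (6867 of all genes) or with the replicate block (6672 of all genes). When a library was left out they numbered 2 to 4, with 2 without csld5 replicate 2 (8238 of all genes) or complemented replicate 2 (7589 of all genes). In complemented against col-0, 346 of all genes were called, 668 with DESeq2, 211, 217 and 103 with limma on TPM (pseudocounts 1, 0.1, and 1 unfiltered), 199 at a log2 of at least 1, and 139 to 461 when a library was left out. Library totals moved the median of all genes to -0.10 and 0.11 in the first and second comparison and the share of calls that were higher to 35.5% and 66.9%. With the GC and length correction that share was 38.9% and 64.4%.

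The directions that reversed were of members near 0, or of PMR6. In csld5 against col-0, GAUT7 was -0.062 with library totals, -0.11 with the correction, with or without the block, and -0.025 to 0.068 without a library, and PMR6 was -0.32 with the correction, with or without the block. In complemented against csld5, PMR6 was 0.17 with the correction, with or without the block, and PGX2 was 0.076 with library totals, 0.0026 with the block, 0.19 with the correction, 0.21 with both, and -0.24 to 0.15 without a library. In complemented against col-0, the ranges without a library were -0.017 to 0.12 for QUA1, -0.040 to 0.069 for QUA2, -0.023 to 0.035 for GAUT1, -0.20 to 0.20 for PGX1 and -0.020 to 0.13 for PGX3, and PGX1 was -0.0030 with limma on unfiltered TPM. The causes were not tested.

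Replicate numbers showed no clear pairing of the libraries: same-numbered libraries of 2 genotypes correlated at -0.106 to 0.196. Libraries with different numbers correlated at -0.243 to 0.183. With 3 libraries per genotype these values cannot decide whether libraries were prepared in pairs. In the fit with a replicate block, 5, 4 and 0 members were called in the 3 comparisons, as without it. For PGX1, PGX2 and ADPG2 a read count of 8 to 66 per library is the limit. Intervals cover the spread between libraries only.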
